A study of Mus musculus with 24 samples.

Results

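The genes described are the core of the microRNA pathway: Drosha and Dgcr8 of the Microprocessor, Xpo5, Dicer1 with its partners Tarbp2 and Prkra, and the Argonautes Ago1 and Ago2. All probe sets annotated to 1 of these 8 genes were taken, whatever their values, which gave 20 of the 45265 probe sets on the arrays of 2 designs, named MA and MB. The MA design held 8 of them, for 6 genes, and the MB design 12, also for 6 genes. A probe set was tested when its signal reached 30 on at least 3 of the 12 arrays of its design, which 18 of the 20 did (7 on MA and 11 on MB).

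The RNA came from C2C12, a line of mouse myoblasts that stop dividing and form multinucleate myotubes once growth medium is replaced. The 4 groups were cells with an shRNA against p68 in differentiation medium (DM), cells with the empty pSuperR vector in DM, cells with the p68 shRNA in growth medium (GM) and cells with the empty vector in GM. Every group was transduced, so that the vector cells carry the same pSuperR backbone as the shRNA cells and no untransduced cells were compared. Each group had 3 arrays per design. The stated aim was muscle differentiation under interference with p68 and p72, and the labels name a hairpin against p68 only, with no second hairpin and no time in DM. The labels do not tell whether replicate arrays came from separate cultures, and the p-values therefore reflect the spread among these arrays, which may be technical. Nor do they tell whether MA and MB arrays took the same RNA, so a result seen on both designs may not be an independent repeat.

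MicroRNAs are cut from long primary transcripts in the nucleus by the Microprocessor, in which Drosha is the RNase III enzyme and Dgcr8 the double-stranded RNA-binding protein that positions it. Exportin-5, the product of Xpo5, carries the resulting hairpin to the cytoplasm with Ran, Dicer1 cuts it to a duplex together with TRBP (Tarbp2) or PACT (Prkra), and an Argonaute takes up 1 strand. Ago2 is the mammalian Argonaute that can cut a fully paired target, while Ago1 acts through repression and decay of the message. The helicase p68, encoded by Ddx5, is a cofactor of the Microprocessor for a part of the primary microRNAs and also a coactivator of MyoD, and muscle differentiation is known for a strong rise of its own microRNAs. The arrays measured messenger RNA, not microRNAs, proteins or processing.

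Of the 8 genes, all but Ago2, that is 7, had an entry in the RefSeq promoter table of GRCm38.p6, which holds windows of 300 bases around transcription starts. The promoters of the 4 genes that fell in DM in vector cells are shown because their letters can be set beside a shared direction, with capitals marking CCAAT boxes (CCAAT, or ATTGG on the other strand) and E-boxes (CANNTG, its own reverse complement in form). The Drosha window is chr15:12824565-12824864 on the plus strand, that of Dgcr8 chr16:18289119-18289418 on the minus strand, that of Ago1 chr4:126468582-126468881 on the minus strand and that of Tarbp2 chr15:102517942-102518241 on the plus strand. The Tarbp2 window lies inside the annotated span of that gene, 102516077 to 102523676, so it belongs to a start other than the outermost one. Ago1 has another, overlapping entry, and the one listed first was used.
Ago1: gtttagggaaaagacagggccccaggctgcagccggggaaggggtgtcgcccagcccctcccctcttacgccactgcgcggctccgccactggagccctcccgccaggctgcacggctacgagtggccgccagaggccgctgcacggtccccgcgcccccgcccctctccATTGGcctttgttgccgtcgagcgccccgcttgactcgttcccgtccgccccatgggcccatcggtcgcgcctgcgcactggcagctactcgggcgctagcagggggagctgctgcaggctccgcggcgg
Tarbp2: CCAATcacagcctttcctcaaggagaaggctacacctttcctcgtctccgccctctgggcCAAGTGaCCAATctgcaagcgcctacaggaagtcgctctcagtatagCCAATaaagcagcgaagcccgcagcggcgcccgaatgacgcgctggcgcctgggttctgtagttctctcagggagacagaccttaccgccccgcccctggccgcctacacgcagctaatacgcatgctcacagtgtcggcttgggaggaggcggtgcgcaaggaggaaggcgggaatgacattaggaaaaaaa
Drosha: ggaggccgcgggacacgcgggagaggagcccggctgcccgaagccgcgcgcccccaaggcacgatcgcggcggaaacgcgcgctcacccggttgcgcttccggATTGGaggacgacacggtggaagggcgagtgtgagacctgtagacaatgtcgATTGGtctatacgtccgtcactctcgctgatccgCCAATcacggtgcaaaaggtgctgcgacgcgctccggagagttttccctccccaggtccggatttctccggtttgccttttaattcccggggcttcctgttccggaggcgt
Dgcr8: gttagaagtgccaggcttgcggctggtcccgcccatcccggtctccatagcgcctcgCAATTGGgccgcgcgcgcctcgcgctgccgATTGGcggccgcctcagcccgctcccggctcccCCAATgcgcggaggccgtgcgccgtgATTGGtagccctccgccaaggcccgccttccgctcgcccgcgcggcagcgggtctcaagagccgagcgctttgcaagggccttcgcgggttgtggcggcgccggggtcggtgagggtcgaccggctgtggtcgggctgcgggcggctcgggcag

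The search for CCAAT on both strands found 1 match in the Ago1, 3 in the Tarbp2, 3 in the Drosha and 4 in the Dgcr8 window. The same search found 1 in the window of Dicer1 and 0 in those of Xpo5 and Prkra, and 37.4% of the 32851 windows in the table hold at least 1. The motif CANNTG was found once in the Tarbp2, once in the Dgcr8 and once in the Dicer1 window, against 72.3% of all windows with at least 1, and the Dgcr8 match shares letters with a CCAAT box. CAGCTG, the E-box form preferred by MyoD, was in none of the 7 windows and in 16.3% of all, and the E2F-type strings TTTCCCGC (1.07% of all windows) and TTTGGCGC (0.514%) were in none of the 7 either. GGGCGG, also searched on both strands, was found 2 times in the Ago1, 3 in the Tarbp2, 0 in the Drosha and 2 in the Dgcr8 window. In the windows of Dicer1, Xpo5 and Prkra it was found 2, 1 and 5 times, and 35.7% of all windows hold it. These are matches of letters in 300 bases, not sites. The 4 windows shown were picked by their direction, so the counts are no test of a link with it.

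The Dgcr8 gene also holds 2 microRNA hairpins, which is of interest because the Microprocessor is known to cut hairpins in the Dgcr8 message and thereby to lower it. Their 4 mature products, from RefSeq (GRCm38.p6, minus strand), are shown with the seed, bases 2 to 8, in capitals. They lie at chr16:18284248-18284268, chr16:18284288-18284310, chr16:18284562-18284583 and chr16:18284602-18284623, in the order of the lines.
mmu-miR-1306-3p: aCGUUGGCucugguggugaug
mmu-miR-1306-5p: cACCACCUccccugcaaacgucc
mmu-miR-3618-3p: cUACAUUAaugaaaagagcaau
mmu-miR-3618-5p: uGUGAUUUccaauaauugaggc
The 4 seeds differ from one another, so the products form no shared seed group. Their abundance was not measured here.

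The labelled cell type was borne out by its markers: Myod1 averaged 1582 in DM shRNA, 1822 in DM vector, 1292 in GM shRNA and 1237 in GM vector cells, and Myog, a regulator of terminal differentiation, averaged 5222 and 6860 in DM shRNA and DM vector cells, against 60.9 and 77.8 in GM shRNA and GM vector cells. The summed signal of the 6 muscle markers was 14470 in DM shRNA, 21750 in DM vector, 2881 in GM shRNA and 3442 in GM vector cells. Myf5, among these 6, had group means of only 22.1 to 44.9 and passed in no comparison. Of the other cell types checked, Adipoq (adipocytes) had group means of at most 5.41 and Ptprc (leukocytes) of at most 6.75 on MA and 21.8 on MB. Other genes of these lists had more signal: Cebpa (adipocytes) averaged 143 to 288 and Sp7 (osteoblasts) 98.9 to 128. At their strongest MA probe sets, Sox9 (cartilage) averaged 39.3 to 113.5 and Csf1r (macrophages) 63.7 to 74.3. The summed signal of 4 adipocyte genes ranged over the groups from 179 to 351, that of 5 macrophage genes from 153 to 200 and that of 3 osteoblast and cartilage genes from 145 to 237, and their part in the results was not tested. Of the 6 probe sets of Ddx5, the strongest was lower under the shRNA in DM (326 in DM shRNA against 541 in DM vector cells, log2 change -0.68 ± 0.16 SE, limma adjusted p 0.00677), while in GM the change was -0.31 (adjusted p 0.287), and the other 5 passed in neither medium. Correlation with the other arrays of its group was lowest for DM vector replicate 3 on MA (0.951, against 0.962 to 0.983 for the rest) and for DM vector replicate 2 on MB (0.825, against 0.835 to 0.886). The DM vector group as a whole was the least alike. Its arrays ran from 0.951 to 0.968 on MA and from 0.825 to 0.843 on MB. Those of the other groups were at 0.9786 or above on MA and at 0.8503 or above on MB. The limma fit shares 1 spread over the 4 groups, so the SE of contrasts with DM vector cells may be too small. The array number and this spread limit the precision.

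Members of the pathway differed in direction with the change of medium in vector cells. Tarbp2, Ago1, Drosha and Dgcr8 were lower in DM and Ago2 was higher, with Xpo5 slightly higher and Dicer1 and Prkra without a call. Drosha and Dgcr8 were each called at 1 of 3 tested probe sets, and on MA the share of members called was near that of all probe sets. Of 18 tested probe sets 3 were higher and 5 lower at an adjusted p under 0.05: on MA 2 were higher and 2 lower of 7, where 49.3% of all 14367 tested probe sets were called (23.9% higher and 25.4% lower), and on MB 1 was higher and 3 lower of 11, where 9.21% of 19303 were (4.21% higher and 5% lower). The DM and GM arrays did not overlap at 4 of 7 and 6 of 11 member probe sets, against 53.9% and 23.4% of all. Among the called, the weaker Tarbp2 probe set, reached the filter only through its GM arrays and so had to differ. The median log2 change of the tested member probe sets was 0.03 on MA and -0.17 on MB, against 0.01 and -0.01 over all tested probe sets. In bulk RNA of a culture that holds myotubes and unfused cells, fewer cells of a type and less RNA per cell cannot be told apart. The log2 ratio of 3' to 5' control signals also changed in vector cells, by -0.09 on MA and -0.14 on MB (DM minus GM), and its part in these changes was not tested.

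**Figure D1:**
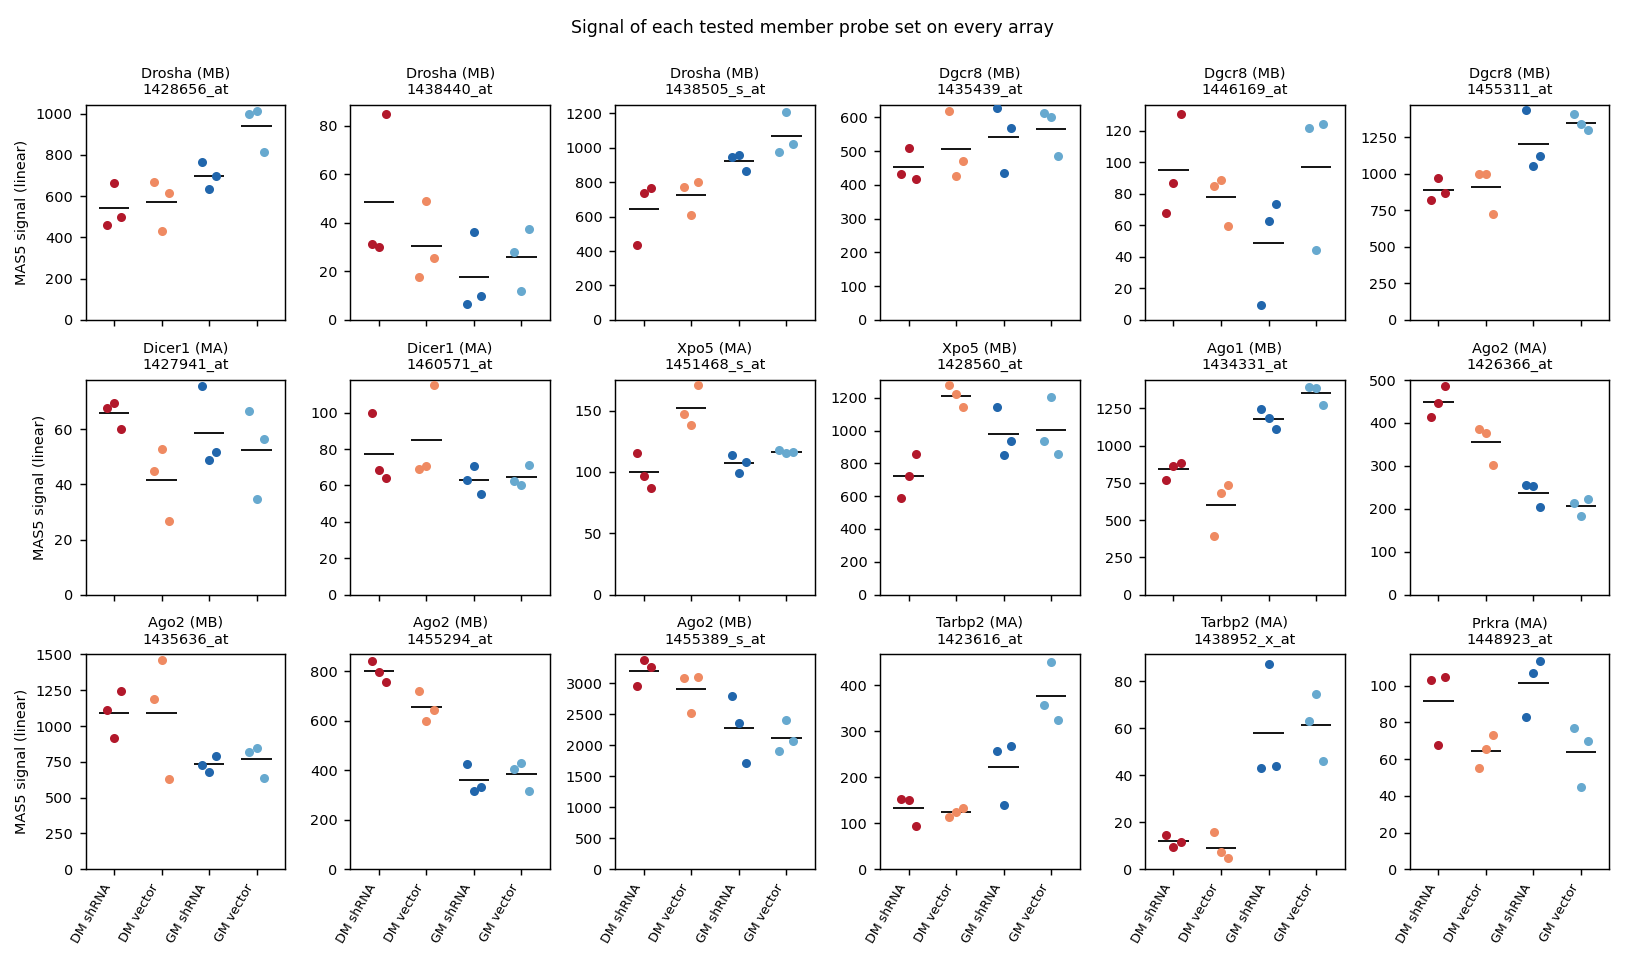
MAS5 signal (linear, vertical axis from 0) of each of the 18 tested member probe sets on every array, with the groups DM shRNA, DM vector, GM shRNA and GM vector along the horizontal axis. Points are single arrays and the bar is the mean of 3. In the Ago2 panel 1426366_at the 6 DM arrays lie between 303.1 and 485.9, above all 6 GM arrays, and in the Tarbp2 panel 1423616_at the 3 GM vector arrays lie above all others.

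Drosha lies on chromosome 15 (12824804 to 12935291, GRCm38.p6) and was measured by 3 probe sets of the MB design. At 1428656_at, the signals in replicate order were 461.4, 664.1 and 498.9 in DM shRNA cells, 667.7, 431.6 and 614.7 in DM vector cells, 763.7, 635.2 and 698.6 in GM shRNA cells, and 997.2, 1012.9 and 814.1 in GM vector cells. All 3 GM vector arrays were above the other 9, and GM shRNA overlapped both DM groups. On the log2 scale of signal plus 15, the medium change (DM against GM) was -0.37 ± 0.20 in shRNA cells (95% interval -0.79 to 0.04, adjusted p 0.411) and -0.72 ± 0.20 in vector cells (limma, adjusted p 0.0257). The call in vector cells was lost without GM vector replicate 1 (adjusted p 0.0997) or 2 (0.102) or DM vector replicate 2 (0.117). The difference between the contrasts was 0.35 ± 0.28 (adjusted p 0.823).

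A second Drosha probe set, 1438505_s_at, gave like changes without a call. It averaged 645 ± 182 in DM shRNA, 728 ± 104 in DM vector, 925 ± 50.2 in GM shRNA and 1068 ± 125 in GM vector cells (SD, n = 3 each). The DM and GM ranges were apart for either construct. Its log2 change from medium was -0.55 in shRNA cells (limma adjusted p 0.161) and -0.55 in vector cells (adjusted p 0.111). The third, 1438440_at, ranged from 6.6 to 84.6 over the 12 arrays, close to the filter, and passed in no comparison. The shRNA itself left Drosha with changes whose intervals hold 0 in DM: -0.07 (95% interval -0.49 to 0.35) and -0.20 (-0.63 to 0.22) at the 2 stronger probe sets. In GM, 1428656_at was lower in all 3 shRNA arrays than in all 3 vector arrays, by 0.42 ± 0.20 on the log2 scale, with an unadjusted p of 0.0493 and an adjusted p of 0.692.

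Dgcr8 (chromosome 16, 18253948 to 18289251) was measured by 3 probe sets on MB and 1 on MA. At 1455311_at the signals were 819.2, 972.7 and 870.9 in DM shRNA cells, 1000.6, 999.2 and 723.4 in DM vector cells, 1436.8, 1050.9 and 1121.3 in GM shRNA cells, and 1407.3, 1338.9 and 1300.7 in GM vector cells. Every DM array was below every GM array, and the constructs overlapped in either medium. The medium change was -0.42 ± 0.17 in shRNA cells (adjusted p 0.222) and -0.58 ± 0.17 in vector cells (limma, adjusted p 0.0396), with a difference of 0.16 ± 0.24 (adjusted p 0.929). Leaving out GM vector replicate 1, 2 or 3 gave adjusted p-values of 0.133, 0.0991 and 0.0844 in vector cells, and leaving out DM vector replicate 3 gave 0.155.

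Probe set 1435439_at, which is annotated to the same sequence record as 1455311_at, did not show this. Its mean was 453 ± 49.9 in DM shRNA, 506 ± 101 in DM vector, 543 ± 98.5 in GM shRNA and 566 ± 69.7 in GM vector cells. The medium change there was -0.17 in vector cells (95% interval -0.59 to 0.26) and -0.24 in shRNA cells (-0.67 to 0.18), so the fall of Dgcr8 rests on 1 probe set. The weaker 1446169_at ranged from 9.5 to 130.2 and passed nowhere. On MA, 1422981_at stayed between 4.0 and 23.4 on all 12 arrays, under the filter, and was not tested. With the shRNA, 1455311_at changed by -0.02 in DM (95% interval -0.38 to 0.34) and by -0.18 in GM (-0.54 to 0.18).

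Xpo5 (chromosome 17, 46202811 to 46243598) was the only member called between shRNA and vector cells. On MA, 1451468_s_at had 115.3, 97 and 86.6 in DM shRNA cells, 147.7, 138.5 and 171.1 in DM vector cells, 114.0, 98.8 and 108.4 in GM shRNA cells, and 117.7, 115.2 and 115.9 in GM vector cells. The 3 DM vector arrays were above the other 9, which lay close together. In DM the shRNA cells were lower than the vector cells by 0.55 ± 0.13 on the log2 scale (limma, adjusted p 0.0102). Without DM shRNA replicate 3 this adjusted p was 0.0507.

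The medium change of the same Xpo5 probe set was -0.10 ± 0.13 in shRNA cells (limma, adjusted p 0.622) and 0.35 ± 0.13 in vector cells (adjusted p 0.0428). The rise in vector cells was small and lost its call without GM vector replicate 1, 3 or 4 (adjusted p 0.0841, 0.0892 and 0.0896) and without DM vector replicate 1 or 3 (0.0626 and 0.119). The difference between the contrasts was -0.44 ± 0.19, with an unadjusted p of 0.0336 and an adjusted p of 0.168. The comparison of constructs in DM and the medium change in vector cells share the DM vector arrays. Muscle markers moved with them, since 3 of the 6 were lower in DM shRNA than in DM vector cells, and their part was not tested.

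The MB probe set of Xpo5, 1428560_at, measured on other arrays, had 587.5, 723.8 and 859.7 in DM shRNA cells, 1276.1, 1222.3 and 1141.1 in DM vector cells, 1142.7, 850.9 and 936.6 in GM shRNA cells, and 937.4, 1205.1 and 860.2 in GM vector cells. Here too the DM shRNA arrays were all below the DM vector arrays, while the GM groups overlapped. Whether these arrays took the same RNA as those of MA is not told. The difference in DM was -0.75 ± 0.18 (unadjusted p 0.000669, limma adjusted p 0.0543), beyond the spread of the arrays and just short of the threshold over all MB probe sets. In GM the shRNA gave -0.03 (95% interval -0.41 to 0.35). The medium change was -0.43 in shRNA cells (adjusted p 0.253) and 0.29 in vector cells (adjusted p 0.432), and their difference was -0.72 ± 0.26 (adjusted p 0.383).

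Dicer1 (chromosome 12, 104687740 to 104751968) was measured on MA only, by 2 probe sets of low signal. At 1427941_at the signals were 67.9, 69.4 and 60.2 in DM shRNA cells, 44.8, 52.9 and 26.7 in DM vector cells, 75.6, 48.7 and 51.7 in GM shRNA cells, and 66.5, 34.8 and 56.4 in GM vector cells. The DM groups did not overlap, and the shRNA cells were the higher ones by 0.55 ± 0.22 (limma adjusted p 0.118). At 1460571_at the order was the other way, with means of 77.5 ± 19.6 in DM shRNA and 85.0 ± 26.2 in DM vector cells, and a change of -0.10 (95% interval -0.52 to 0.31). The medium changes at both probe sets lay between -0.26 and 0.30 and passed in neither construct.

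Tarbp2 (chromosome 15), the RNA-binding partner of Dicer1, had the largest fall among the members in vector cells. At 1423616_at the signals were 153.6, 150.7 and 94.3 in DM shRNA cells, 114.6, 125.2 and 132.4 in DM vector cells, 257.2, 140.2 and 269.0 in GM shRNA cells, and 356.7, 449.6 and 325.3 in GM vector cells. GM vector stood above all other groups, and GM shRNA replicate 3, at 140.2, lay within the range of DM. The medium change was -0.66 ± 0.22 in shRNA cells (limma, adjusted p 0.0332) and -1.49 ± 0.22 in vector cells (adjusted p 5.925e-05). The call in shRNA cells was lost without GM shRNA replicate 2 (adjusted p 0.131) or 4 (0.143) or DM shRNA replicate 3 (0.155), and that in vector cells was kept without any 1 array. The difference between the contrasts was 0.83 ± 0.31 (adjusted p 0.12).

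In GM, Tarbp2 at 1423616_at was lower with the shRNA on every array, by 0.76 ± 0.22 on the log2 scale (limma, adjusted p 0.0552), and in DM it differed by 0.06 ± 0.22. The other probe set did not have the GM difference. At 1438952_x_at, whose suffix marks probes that can bind other transcripts, the signals were 14.5, 9.5 and 11.5 in DM shRNA cells, 15.8, 7.3 and 4.6 in DM vector cells, 43.0, 87.4 and 43.8 in GM shRNA cells, and 63.2, 74.5 and 46.3 in GM vector cells. All DM signals were under 30 and near the pseudocount. Since only its 6 GM arrays brought it past the filter, the medium change is a description without a test: -1.40 in shRNA and -1.66 in vector cells, with -2.14 and -0.78 in shRNA and -2.73 and -0.91 in vector cells at pseudocounts of 1 and 50. The shRNA changed it by -0.10 in GM (95% interval -0.65 to 0.45).

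Prkra (chromosome 2, 76609215 to 76648220), the other partner of Dicer1, had no call in any comparison. At 1448923_at on MA, it had 103.1, 67.7 and 104.8 in DM shRNA cells, 55.1, 65.6 and 73.2 in DM vector cells, 83.1, 107.1 and 113.7 in GM shRNA cells, and 77.0, 44.7 and 69.7 in GM vector cells. The shRNA cells were the higher ones in GM on every array, and the groups overlapped in DM. The difference in GM was 0.58 ± 0.20 (unadjusted p 0.0116, limma adjusted p 0.107) and in DM 0.41 ± 0.20 (adjusted p 0.189). The medium change was -0.13 in shRNA cells (95% interval -0.56 to 0.29) and 0.03 in vector cells (-0.39 to 0.46). Its MB probe set, 1447737_at, had 66.8 on 1 DM vector array and at most 22.1 on the other 11, and was not tested.

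Ago1 (chromosome 4, 126435012 to 126468707) had 1 probe set, 1434331_at on MB. Its signals were 770.7, 865.8 and 885.1 in DM shRNA cells, 394.0, 681.9 and 734.2 in DM vector cells, 1245.3, 1185.3 and 1111.2 in GM shRNA cells, and 1392.9, 1387.8 and 1270.7 in GM vector cells. The 4 groups did not overlap at all and ran from DM vector as the lowest through DM shRNA and GM shRNA to GM vector. The medium change was -0.48 ± 0.20 in shRNA cells (limma, adjusted p 0.22) and -1.19 ± 0.20 in vector cells (adjusted p 0.000351), the second kept without any 1 array. The shRNA gave 0.51 ± 0.20 in DM (adjusted p 0.307) and -0.19 ± 0.20 in GM (adjusted p 0.926), and the difference of the contrasts was 0.71 ± 0.28 (unadjusted p 0.0197, adjusted p 0.452).

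Ago2 (chromosome 15, 73101625 to 73184947) went the other way and was higher in DM with either construct. On MA, 1426366_at had 414.2, 446.4 and 485.9 in DM shRNA cells, 386.2, 375.8 and 303.1 in DM vector cells, 255.3, 252.6 and 205.1 in GM shRNA cells, and 214.4, 184.2 and 222.2 in GM vector cells. All 6 DM arrays were above all 6 GM arrays, and within DM the shRNA arrays were above the vector arrays. The rise was 0.88 ± 0.13 in shRNA cells (limma, adjusted p 0.000121) and 0.73 ± 0.13 in vector cells (adjusted p 0.000297), and the difference of 0.15 ± 0.19 did not pass (adjusted p 0.698).

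On MB, Ago2 at 1455294_at had the same pattern in separately scaled arrays, which may have taken the same RNA. It had 841.6, 797.3 and 757.1 in DM shRNA cells, 720.9, 597.5 and 643.3 in DM vector cells, 426.7, 317.4 and 332.2 in GM shRNA cells, and 406.2, 429.8 and 315.6 in GM vector cells. The rise was 1.13 ± 0.19 in shRNA cells (limma, adjusted p 0.000695) and 0.75 ± 0.19 in vector cells (adjusted p 0.0134). The call in vector cells was lost without GM vector replicate 3 (adjusted p 0.0812) or DM vector replicate 1 (0.0503). Within DM, the shRNA cells were higher by 0.29 ± 0.19 here (adjusted p 0.654) and by 0.33 ± 0.13 on MA (adjusted p 0.104), with groups that did not overlap on either design.

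The remaining Ago2 probe sets, 1435636_at and 1455389_s_at, share a sequence record and had smaller positive changes without a call. Their medium changes were 0.56 and 0.51 in shRNA cells (limma adjusted p 0.264 and 0.116), and 0.43 and 0.45 in vector cells (adjusted p 0.349 and 0.127). At 1435636_at the DM vector arrays spread from 628.6 to 1458.9, and without the lowest of them, replicate 3, the change in vector cells was 0.78 with an adjusted p of 0.0138. At 1455389_s_at the change in shRNA cells was 0.67 without GM shRNA replicate 1, with an adjusted p of 0.0396. All 4 Ago2 probe sets had a positive medium change with either construct, and 2 of the 4 passed. The shRNA cells in DM differed little from the vector cells at these weaker responders. The changes were 0.07 at 1435636_at and 0.145 at 1455389_s_at (limma adjusted p 0.956 and 0.844), with groups that overlapped.

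**Figure D2:**
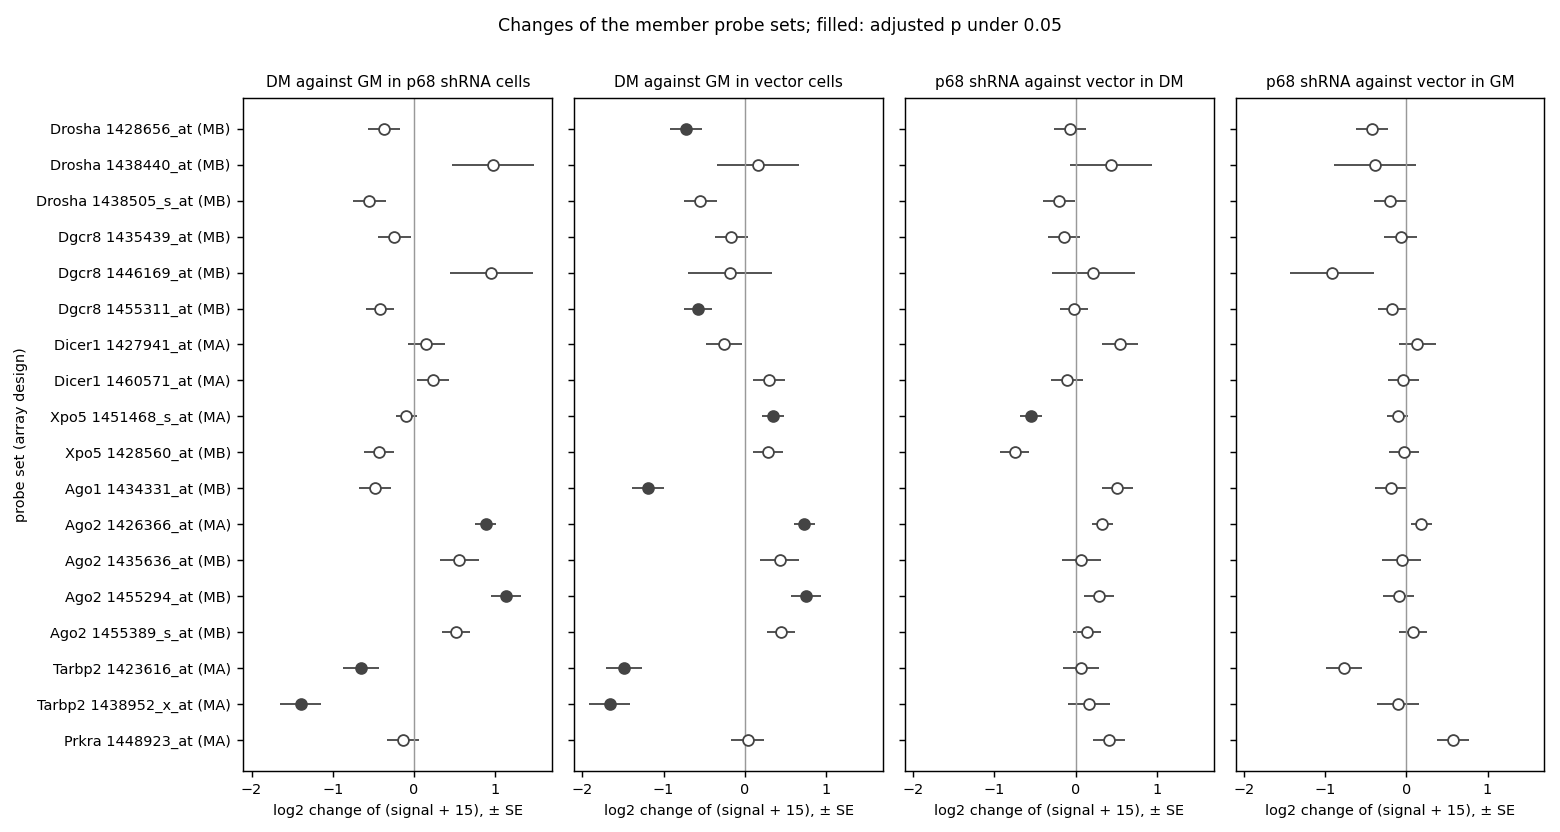
Log2 change of signal plus 15 with its standard error (horizontal axis) for the 18 tested member probe sets (rows) in 4 comparisons, with filled points at an adjusted p under 0.05. For DM against GM in shRNA cells 4 points are filled (1 of them Tarbp2 1438952_x_at, which the filter decided), for the same contrast in vector cells 8, for p68 shRNA against vector in DM only Xpo5 1451468_s_at, and in GM none.

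In shRNA cells the medium called 2 probe sets higher, both of Ago2, and 2 lower, both of Tarbp2. Of that pair, 1438952_x_at had to differ because of the filter, so that the fall of Tarbp2 in shRNA cells rests on 1423616_at, whose call was lost without any 1 of 3 arrays (adjusted p 0.131, 0.143 and 0.155). On MA these were 1 higher and 2 lower of 7, where 33.9% of all tested probe sets were called (16.3% higher and 17.5% lower), and on MB 1 higher and 0 lower of 11, against 4.85% (2.27% higher and 2.57% lower). The groups did not overlap at 2 of 7 and 6 of 11, against 50.6% and 21% of all. Drosha, Dgcr8 and Ago1, which fell in vector cells, had negative values in shRNA cells at their strongest probe sets without a call. The interaction, which tests whether the medium change differed between constructs, called 0 of 18 by limma, against 9.95% of all tested probe sets on MA and 0.389% on MB, and 2 of 7 and 2 of 11 had an unadjusted p under 0.05 (Xpo5 and Tarbp2 on MA, Xpo5 and Ago1 on MB). A weaker response of these genes to DM under the p68 shRNA was therefore not shown.

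Between shRNA and vector cells in DM, 1 of 7 MA probe sets was called, Xpo5, against 16.9% of all on MA (6.24% lower), and by limma 0 of 11 on MB, against 1.17%, with 2 of 11 at an unadjusted p under 0.05. In GM limma called 0 of 7 and 0 of 11, against 6.56% and 0.275% of all, and 2 and 1 had an unadjusted p under 0.05. Groups did not overlap between shRNA and vector at 3 of 7 and 3 of 11 probe sets in DM, against 30.7% and 13.8% of all, and at 3 of 7 and 3 of 11 in GM, against 30% and 14.6%. Where groups did not overlap, the exact two-sided permutation test gave 0.1, the smallest p that 3 against 3 arrays allow.

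For each called member probe set the genes with the most similar course were sought, by the root-mean-square difference of centred log2 values over the 12 arrays among genes with a mean signal of at least 150. For Ago2 these were Laptm4b (0.11), Rbfox2 (0.12) and Smim11 (0.13) on MA, and Pxdn (0.15), Elavl1 (0.16) and Cdv3 (0.16) on MB, while Ago2 itself varied with an SD of 0.46 and 0.53. For Ago1 they were Reep4 (0.15), Hdac5 (0.15) and Wdr34 (0.15), at an SD of 0.53. For Drosha they were Urod (0.11), 4930526I15Rik (0.15) and Zcchc2 (0.15), and for Dgcr8 Cactin, Kctd15 and Adar (0.14 each). Xpo5 ran closest to Chmp4b (0.12), Psmc2 (0.13) and Tacc2 (0.13). The nearest genes to Tarbp2 were further off, with Cad (0.24), Eef1d (0.27) and Rnps1 (0.28) at 1423616_at, and Anxa3, Cd151 and Smarcd2 (0.25 each) at 1438952_x_at.

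The wider pathway was read from 5 lists, with 1 probe set per gene, the one of highest signal, on MA where the gene was tested there. Among cofactors of the Microprocessor and nuclear RNA-binding partners, 0 of 14 tested genes were higher and 0 lower with the change to DM in shRNA cells (limma), with a median log2 change of -0.19, against 0 higher and 6 lower in vector cells, with a median of -0.57. Srrt, which ties the Microprocessor to the cap-binding complex, averaged 337 in DM shRNA, 199 in DM vector, 370 in GM shRNA and 484 in GM vector cells, a fall of 1.22 in vector cells (adjusted p 6.003e-07). Adarb1, an RNA-editing deaminase, fell by 0.75 (limma adjusted p 0.00622, with -1.11 and -0.42 at pseudocounts of 1 and 50). Its means were 25.8 in DM shRNA, 19.2 in DM vector, 41.3 in GM shRNA and 42.4 in GM vector cells. The DM means lie under the filter, so Adarb1 may have passed it mainly through its GM arrays. Its place among the 6 falling genes may thus depend on the filter. Khsrp, a binder of precursor loops, fell by 0.83 (adjusted p 0.0424). The Khsrp call was lost without MB GM vector replicate 1 or 2 or MB DM vector replicate 1 or 2 (adjusted p up to 0.229). Tardbp fell by 1.02 at its probe set of highest signal (adjusted p 0.00965) and rose by 1.13 at 1434419_s_at (adjusted p 7.784e-06), so that its direction depends on the probe set. Without MA DM vector replicate 3, 1 gene of the list was higher in vector cells. With 1 array left out, the number of falling genes in vector cells ran from 5 to 8. Most genes of the lists were read on MA, where 33.9% of all probe sets were called in shRNA cells (16.3% higher, 17.5% lower). In vector cells 49.3% were called there (23.9% higher, 25.4% lower). On MB these shares were 4.85% and 9.21%. The median changes over all MA probe sets were -0.003 and 0.008.

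Of 5 export genes, 0 were higher and 2 lower in DM in shRNA cells (median -0.28), and 0 and 3 in vector cells (median -0.41). All were read on MA, where 17.5% of all probe sets were lower in shRNA cells and 25.4% in vector cells. Ranbp1, a Ran-binding protein, fell by 0.69 in shRNA and by 0.99 in vector cells (limma adjusted p 0.000993 and 2.03e-05), and Rangap1, which makes Ran hydrolyse GTP, by 0.77 in vector cells (adjusted p 0.000979). Ran, the GTPase that Exportin-5 needs, fell by 0.35 and 0.42 (adjusted p 0.0165 and 0.0038) at its strongest probe set, but 1460551_at rose by 0.28 in vector cells (adjusted p 0.0297). The Ran call in shRNA cells was lost without MA GM shRNA replicate 3 or MA DM shRNA replicate 2 (adjusted p up to 0.0774), which left 1 gene of the list lower.

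Among the RISC loading factors and Argonaute partners, 2 of 18 tested genes were higher and 1 lower in DM in shRNA cells (median -0.07), and 3 higher and 8 lower in vector cells (median -0.33). On MA, which gave 16 of them, 16.3% of all probe sets were higher and 17.5% lower in shRNA cells. In vector cells 23.9% were higher and 25.4% lower there. Fxr1, an RNA-binding relative of Fmr1 with muscle isoforms, rose by 1.04 in shRNA cells (limma adjusted p 0.0423) and by 1.49 in vector cells (adjusted p 0.00374), and Fxr2 by 1.29 in vector cells (adjusted p 0.000554). Mov10, a helicase found with Argonaute, averaged 37.8 in DM shRNA, 13.1 in DM vector, 68.9 in GM shRNA and 54.6 in GM vector cells, a fall of 0.67 in shRNA (adjusted p 0.0216) and of 1.35 in vector cells (adjusted p 7.037e-05). Its DM vector mean is below the pseudocount of 15, so the size depends on it: at pseudocounts of 1 and 50 the change was -0.85 (adjusted p 0.129) and -0.44 in shRNA cells and -2.21 and -0.74 in vector cells. Tnrc6b, a GW182 protein that joins Argonaute to the deadenylases, rose by 0.45 in shRNA (adjusted p 0.0227) and by 0.43 in vector cells (adjusted p 0.0206). The other GW182 genes of the list, Tnrc6a and Tnrc6c, named after their values were seen, went the other way. In vector cells they changed by -0.54 and -0.435 (limma adjusted p 0.00484 and 0.0391). With 1 array left out, Tnrc6a kept this call in 6 of 6 cases and Tnrc6c in 2 of 6. Snd1, a nuclease of RISC, fell by 0.64 at one probe set (adjusted p 0.0339) and rose by 1.16 at 1437037_x_at (adjusted p 0.00269) in vector cells.

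Several of these calls rest on single arrays. In shRNA cells the call was lost for Fxr1 without MA GM shRNA replicate 2 or 3 or MA DM shRNA replicate 1 or 3 (adjusted p up to 0.13), for Mov10 without GM shRNA replicate 3 or DM shRNA replicate 1 or 2 (up to 0.0833), and for Tnrc6b without GM shRNA replicate 3 or DM shRNA replicate 2 or 3 (up to 0.102). The count of rising genes in shRNA cells was thus 0 without GM shRNA replicate 3 or DM shRNA replicate 3 and 1 without GM shRNA replicate 2 or DM shRNA replicate 1 or 2, and that of falling ones was 0 without GM shRNA replicate 3 or DM shRNA replicate 1 or 2 and 2 without GM shRNA replicate 2. In vector cells Tnrc6b was lost without MA GM vector replicate 1 or MA DM vector replicate 2 (adjusted p up to 0.0839). The fall of Snd1 in vector cells was lost without MA GM vector replicate 4 or MA DM vector replicate 1 or 2 (adjusted p up to 0.18). With 1 array left out, 2 to 3 genes of the list rose and 6 to 8 fell in vector cells.

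Of 20 tested genes for deadenylation and decapping, 4 were higher and 2 lower in DM in shRNA cells (median 0.02), and 4 higher and 5 lower in vector cells (median 0.16). On MA, which gave 15 of them, 33.9% of all probe sets were called in shRNA and 49.3% in vector cells. On MB, which gave 5, the shares were 4.85% and 9.21%. The counts are near the MA shares. Cnot6l, a catalytic deadenylase subunit of CCR4-NOT, rose by 1.54 in shRNA cells (limma adjusted p 3.706e-05) and by 1.56 in vector cells (adjusted p 1.481e-05), and its 4 probe sets rose with either construct. Tob1, which recruits that complex and restrains proliferation, rose by 0.89 in shRNA cells (adjusted p 0.0171) and by 1.37 in vector cells (adjusted p 0.000535). Cnot9, another subunit, fell by 0.59 in shRNA and 1.13 in vector cells (adjusted p 0.00388 and 7.2e-06) and Edc3, a decapping enhancer, by 0.68 in shRNA and 0.94 in vector cells (adjusted p 0.0248 and 0.00106). Cnot6, a paralogue of Cnot6l, rose by 0.64 in shRNA cells (adjusted p 0.0277).

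Calls of this list that rested on single arrays were found with either construct. Cnot6l and Cnot9 kept theirs in 6 of 6 cases of a left-out array in shRNA and in vector cells, while in vector cells Cnot3, Cnot8 and Pan3, named after their values were seen, kept theirs in 2, 3 and 1 of 6. In shRNA cells the call was lost for Tob1 and for Cnot6 without MA GM shRNA replicate 2 or 3 or MA DM shRNA replicate 1 or 2 (adjusted p up to 0.0878 and 0.124), which left 1 or 2 rising genes in the list. Edc3 was lost without MB GM shRNA replicate 1 or 3 or MB DM shRNA replicate 1, 2 or 3 (up to 0.132), which left 1 falling gene. With 1 array left out, 3 to 5 genes of the list rose and 4 to 6 fell in vector cells.

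Among 9 tested genes for tailing and turnover of microRNAs, 3 were higher and 0 lower in DM in shRNA cells (median 0.08), and 1 was higher and 1 lower in vector cells (median 0.06, limma). On MA, which gave 6 of them, 33.9% of all probe sets were called in shRNA and 49.3% in vector cells. On MB, which gave 3, the shares were 4.85% and 9.21%. Eri1, a 3' exonuclease, fell by 1.08 in vector cells (adjusted p 6.149e-05), and Tut7, a terminal uridylyltransferase, rose by 0.42 (adjusted p 0.0171). That call was lost without MA GM vector replicate 1 or MA DM vector replicate 2 (adjusted p up to 0.0804), which left 0 rising genes, and without MA DM vector replicate 3 there were 2. In shRNA cells Tut4, a second uridylyltransferase, rose by 0.87 (adjusted p 0.0223), Xrn2, a 5' exonuclease, by 0.68 (adjusted p 0.00183) and Tent2, a poly(A) polymerase, by 0.54 (adjusted p 0.0112). Tut4 was lost without MB GM shRNA replicate 2 or 3 or MB DM shRNA replicate 1 or 2 (up to 0.14) and Tent2 without MA GM shRNA replicate 3 or MA DM shRNA replicate 1 (up to 0.0526). In vector cells Tut4 changed by 0.70 (limma adjusted p 0.0514), Tent2 by 0.35 (adjusted p 0.0637) and Xrn2 by -0.07 (adjusted p 0.72). The interaction called neither Tut4 nor Tent2 (limma adjusted p 0.94 and 0.65). At its other probe set, 1422842_at, Xrn2 changed by 0.26 in shRNA cells (adjusted p 0.269) and rose by 0.65 in vector cells (adjusted p 0.00515).

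**Figure D3:**
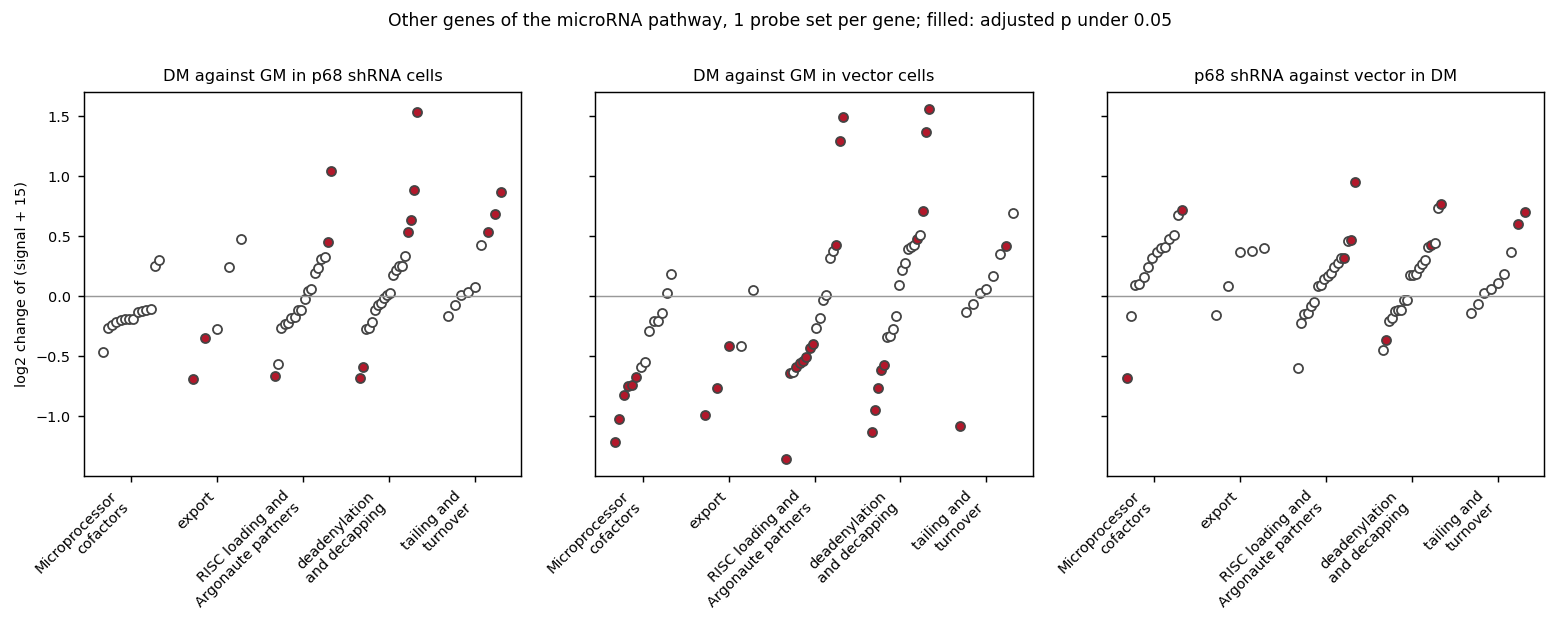
Log2 change of signal plus 15 (vertical axis) of each tested gene of 5 pathway lists, ordered by size within a list (horizontal axis), in 3 comparisons, with filled points at an adjusted p under 0.05. For DM against GM, 0 of 14 Microprocessor cofactors are filled in shRNA cells, and 6 are filled and lie below 0 in vector cells. Among the 6 is Adarb1, whose DM means lie under the filter. Of all tested MA probe sets, 33.9% were called in shRNA and 49.3% in vector cells.

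In DM, the p68 shRNA was set against the vector for the same lists, whose median log2 changes were 0.34 (cofactors), 0.37 (export), 0.16 (RISC), 0.18 (deadenylation and decapping) and 0.11 (turnover), against 0.05 over all MA probe sets. The counts below stand beside 16.9% of all MA and 1.17% of all MB probe sets called. Those of the cofactor, RISC, deadenylation and decapping, and turnover lists are all near the MA share for lists this small. The cofactor list held 1 rise, Srrt, by 0.71 ± 0.12 (limma adjusted p 0.000638), and 1 fall, the target Ddx5. The export list held 0 of either (0 of 5 by limma), and 1 rise without MA DM vector replicate 1, 2 or 3. Mov10 rose by 0.96 ± 0.21 (adjusted p 0.00498, with 1.69 and 0.48 at pseudocounts of 1 and 50), Tnrc6a, another GW182 protein, by 0.47 (adjusted p 0.0334) and Tsn, a subunit of the C3PO nuclease, by 0.32 (adjusted p 0.0439), the 3 calls among 18 RISC genes. The DM vector mean of Mov10 lies under the filter, so its call here may depend on the filter too. Eri1 rose by 0.71 ± 0.16 (adjusted p 0.00766) and Xrn2 by 0.60 ± 0.14 (adjusted p 0.00881), both of 9 turnover genes and both kept without any 1 array, while Xrn2 at 1422842_at changed by -0.05 (adjusted p 0.882). Of 20 deadenylation and decapping genes, Cnot6 rose by 0.77 (adjusted p 0.0183), Cnot9 rose by 0.43 (adjusted p 0.0427) and Edc4, a decapping scaffold, fell by 0.36 (adjusted p 0.0435).

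Without 1 MA array, Tnrc6a was lost in DM with vector replicate 1 or 2 or shRNA replicate 1 or 2 left out (adjusted p up to 0.154), Tsn with vector replicate 2 or 3 or shRNA replicate 1, 2 or 3 (up to 0.15), Cnot6 with vector replicate 3 or shRNA replicate 1 (up to 0.0892), Cnot9 with vector replicate 1 or 2 or shRNA replicate 2 or 3 (up to 0.186) and Edc4 with vector replicate 1, 2 or 3 or shRNA replicate 1 or 2 (up to 0.147). Rising cofactors then numbered 3 without vector replicate 1, rising RISC genes 1 without vector replicate 2 or shRNA replicate 1 or 2, and falling RISC genes 1 without vector replicate 1 or 3. In GM, where 6.56% of all MA and 0.275% of all MB probe sets were called, 1 gene over the 5 lists passed by limma: Fkbp4, a cochaperone of Hsp90, which averaged 449 in GM shRNA and 654 in GM vector cells and fell by 0.53 ± 0.11 (adjusted p 0.0102). It did not pass without MA GM vector replicate 3 or MA GM shRNA replicate 4 (adjusted p up to 0.057).

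**Figure D4:**
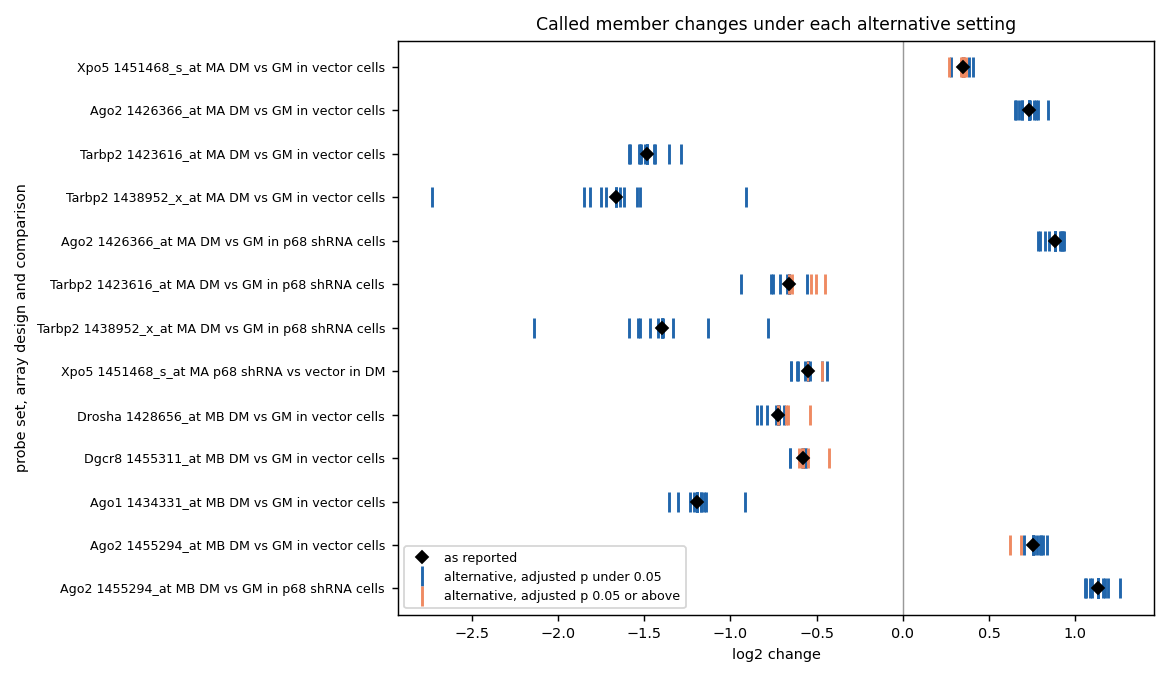
Log2 change (horizontal axis) of the 13 called member results (rows) as reported (diamonds) and under each alternative setting or left-out array (ticks, blue where the adjusted p stayed under 0.05, orange where it did not). No value crosses 0, and 7 of the 13 results have blue ticks only, among them both of Tarbp2 1438952_x_at, which the filter decided.

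Across settings and left-out arrays, the fall of Ago1 in vector cells ranged from -1.35 to -0.92, the fall of Tarbp2 at 1423616_at from -1.59 to -1.29, and the rise of Ago2 at 1426366_at from 0.65 to 0.84, all with an adjusted p under 0.05. The fall of Drosha ranged from -0.84 to -0.54 with adjusted p-values up to 0.14 and that of Dgcr8 from -0.66 to -0.43 with adjusted p-values up to 0.211.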

How the data were processed

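Biotin-labelled total RNA was measured on 12 arrays of each design. The authors deposited 1 linear intensity per probe set and array, made with MAS5 per the submitters' processing notes; the sources used here give neither its settings nor detection calls. The deposited arrays were already scaled, with a mean after removing 2% at each end of 150.1 on MA and 150 on MB. Gene names came from the platform annotation, with 20380 probe sets of 1 symbol on MA and 14661 on MB, several on 691 and 245 and none on 1555 and 7605, and were checked against RefSeq (GRCm38.p6). Those with several symbols stayed unnamed. The designs were tested apart on log2(signal + 15) in limma 3.58.1 (R 4.3.3). All 4 group means shared 1 spread (8 residual degrees of freedom), with eBayes and a mean-variance trend, and p-values were adjusted by Benjamini-Hochberg over all tested probe sets of a design and contrast, at 0.05. A log2 change understates that of weak probe sets, and levels of different probe sets were not compared. The fit was tested on simulated data. Of the pathway lists, genes that passed were named, at most 4 per list and contrast with the largest change, beside the members and Ddx5; further probe sets of named genes were added after their values were seen. The members and lists were chosen with earlier results of these data known. Alternatives covered pseudocount, filter, normalization, arrays fitted, variance trend, replicate block and each array left out; leaving out arrays for the lists and other pseudocounts for weak list genes were added after seeing the data.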

Additional observations from a re-analysis of the deposited data

Results flagged for a closer look

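Over the 5 pathway lists, the effect of DM differed between shRNA and vector cells for 5 genes by the interaction of medium and construct in limma, and for no member. For Srrt the medium change was -0.13 in shRNA and -1.22 in vector cells, a difference of 1.087 ± 0.163 (SE, adjusted p 0.000841), which passed with each of the 12 MA arrays left out in turn. For Eri1 it was -0.17 in shRNA and -1.08 in vector cells, a difference of 0.919 ± 0.23 (adjusted p 0.0207), and it did not pass without GM vector replicate 4, GM shRNA replicate 4 or DM shRNA replicate 3 (adjusted p up to 0.0576). Its other probe set, 1418827_at, gave 0.62 (adjusted p 0.48). For Xrn2 it was 0.68 in shRNA and -0.07 in vector cells, a difference of 0.751 ± 0.201 (adjusted p 0.029), which passed in 5 of 12 cases and not without GM shRNA replicate 3 or 4, GM vector replicate 3 or 4, DM shRNA replicate 1 or 3 or DM vector replicate 2 (adjusted p up to 0.0734), and 1422842_at gave -0.39 (adjusted p 0.362).

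Ewsr1, an RNA-binding protein found with the Microprocessor, changed by -0.19 in shRNA and by -0.74 in vector cells, a difference of 0.551 ± 0.161 (adjusted p 0.043). This passed without GM shRNA replicate 3 or DM vector replicate 3 and in no other of the 12 cases (adjusted p up to 0.105), and 1417238_at gave 0.17 (adjusted p 0.719). For Tsn the change was -0.12 in shRNA and -0.59 in vector cells, a difference of 0.474 ± 0.142 (adjusted p 0.0483), which passed without DM vector replicate 1 and in no other of the 12 cases (adjusted p up to 0.125). Its 3 other probe sets gave 0.23 to 0.36 without a call. All of these were measured on MA, where 9.95% of tested probe sets passed this test. Of the list genes read on MA, 2 of 13 cofactor, 0 of 5 export and 1 of 16 RISC genes passed. For deadenylation and decapping it was 0 of 15, and for turnover 2 of 6. Over the 5 lists, the share of MA genes that passed was thus near that of all MA probe sets. The count by itself therefore does not set the pathway apart.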

How the results depend on the processing

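Leaving aside Tarbp2 1438952_x_at, which had to differ because of the filter, 5 of 11 called member results kept their call under every alternative tried, and 0 reversed. The number of called probe sets in vector cells, 8 as reported, was 5 (2 higher, 3 lower) without the variance trend and with only the 6 arrays compared in the fit. Between shRNA and vector in DM it was 2 with a pseudocount of 50, with a filter of 60 in 6 arrays and with quantile normalization, where Xpo5 1428560_at joined, and 0 with only the arrays compared, against 1. In GM it was 1 (Tarbp2 1423616_at) with a pseudocount of 50, a filter of 60 in 6 arrays, quantile normalization and only the arrays compared, against 0. Leaving out 1 array gave 3 to 5 called probe sets in shRNA cells, 6 to 8 in vector cells, 0 to 1 between constructs in DM and 0 in GM and for the interaction. With only the arrays compared there are fewer degrees of freedom; for the other settings the cause was not tested. The labels do not say that a number marks shared samples, and not every pair of same-numbered arrays deviated together, so numbers were not taken as pairs: correlations ran from -0.139 to 0.293 on MA (5 of 9 over 0.1, own number the best partner in 6) and from -0.039 to 0.028 on MB (0 of 12 and 3). With the replicate number as a block, 3 probe sets were called in shRNA and 7 in vector cells, 1 between constructs in DM and 0 in GM and for the interaction; Tarbp2 1423616_at in shRNA cells (adjusted p 0.0603) and Xpo5 1451468_s_at in vector cells (0.0798) lost their calls. Low signals (Tarbp2 1438952_x_at in DM, Dicer1, Prkra) limit what could be seen.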
